A study of Mus musculus with 6 samples.

Results

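A set of 10 genes of heart and slow-twitch muscle were followed in RNA from mouse aortae: Myh6, Myh7, Myl2, Myl3, Myl4, Myl7, Tnnt2, Tnni3, Mybpc3 and Nppa. They were chosen by name, and all 10 of 10 have a row among the 55453 genes of the deposited count table. The tested mice were homozygous for a floxed Srf allele and carried the Itga8-CreERT2 driver, and the control mice were heterozygous for the same allele with the same driver. Every mouse of both groups thus carried the Cre driver and at least 1 floxed Srf copy, and all received tamoxifen in 5 daily doses of 33 mg/kg. The aorta was excised 10 days after dosing ended, from the descending arch to the renal branches, and adventitia and endothelium were removed by hand. The 2 homozygous libraries (replicates 2 and 3) and 3 heterozygous libraries (replicates 1, 2 and 3) were analysed, and homozygous replicate 1 was not analysed here. Aortae were frozen and processed singly. The design text says that 1 homozygous sample was set aside as an outlier or sampling error. Recombination depends on where the Itga8 locus is active, and the sources used here do not give strain, sex or age.

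The sarcomere of striated muscle runs on a myosin motor of heavy and light chains that slides along actin filaments, and calcium switches it on through the troponin complex on those filaments. Heart and slow skeletal fibres share part of their isoforms. Myh7, Myl2 and Myl3 serve the ventricle and slow fibres, while Myh6 is the main heavy chain of the adult mouse heart and Myl4 and Myl7 are light chains of the atria. Tnni3 and Mybpc3 are cardiac proteins, Tnnt2 is cardiac and embryonic, and Nppa encodes the atrial natriuretic peptide. Medial smooth muscle uses other isoforms, such as Myh11. Serum response factor, the product of Srf, binds the CArG box, an element of many smooth, cardiac and skeletal muscle promoters.

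Srf stood at 45.0 and 38.6 CPM in the homozygous libraries and at 56.1, 64.4 and 68.3 CPM in the heterozygous libraries, with a log2 fold change of -0.59 and an edgeR adjusted p of 0.115. By DESeq2 the adjusted p of Srf was 0.00373. Library totals ran from 26177821 to 34311855 counts, and CPM (counts relative to library size, scaled by TMM factors) is the unit below. The tissue label was met by the smooth muscle markers, which summed to 14569 and 14016 CPM in homozygous and to 24066 to 25691 CPM in heterozygous libraries. At an adjusted p under 0.05, DESeq2 called 8 of these 8 markers lower and edgeR called 0. Over all genes, DESeq2 called 2.61% lower and edgeR 0%. Markers of other tissues differed among libraries. The 16 fast skeletal fibre markers summed to 1177 CPM in homozygous replicate 2 and 3143 CPM in homozygous replicate 3, against 847, 417 and 65.1 CPM in heterozygous replicates 1, 2 and 3. The 7 brown adipocyte markers summed to 1101 and 1029 CPM in homozygous libraries and to 354, 696 and 267 CPM in heterozygous libraries. Their part in the values of the 10 genes was not tested.

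The start regions of 4 of the genes are shown, those of Myl3 and Myl7 because they hold a CArG box and those of the neighbouring heavy chain genes Myh6 and Myh7 for comparison. All 10 genes matched RefSeq start windows on GRCm38.p6, in 13 windows of 300 bases (250 before and 50 after the start). A CArG box was found in 2 of the 13, those of Myl3 and Myl7, and in 1.63% of the 32851 windows of all genes. The short muscle motif CATTCC, bound by TEAD factors, was found on either strand in 5 of the 13 windows and in 14.7% of all windows. Capitals below mark CArG boxes and CATTCC or its reverse complement GGAATG. Both motifs were searched on both strands, and they do not overlap each other in these windows. A match is a description of the letters, not evidence of binding.
Myh6, chr14:54966558-54966857, minus strand: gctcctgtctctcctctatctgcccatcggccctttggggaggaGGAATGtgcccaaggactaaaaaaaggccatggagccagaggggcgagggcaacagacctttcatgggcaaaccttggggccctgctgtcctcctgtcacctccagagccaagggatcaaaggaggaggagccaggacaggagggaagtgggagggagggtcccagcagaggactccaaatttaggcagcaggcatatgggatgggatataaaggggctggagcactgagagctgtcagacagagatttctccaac
Myh7, chr14:54994577-54994876, minus strand: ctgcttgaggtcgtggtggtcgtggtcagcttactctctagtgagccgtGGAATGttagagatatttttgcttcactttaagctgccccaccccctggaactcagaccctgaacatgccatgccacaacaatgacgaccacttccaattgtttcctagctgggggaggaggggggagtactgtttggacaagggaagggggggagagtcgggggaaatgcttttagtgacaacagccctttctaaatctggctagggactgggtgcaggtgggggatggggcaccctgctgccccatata
Myl3, chr9:110763428-110763727, plus strand: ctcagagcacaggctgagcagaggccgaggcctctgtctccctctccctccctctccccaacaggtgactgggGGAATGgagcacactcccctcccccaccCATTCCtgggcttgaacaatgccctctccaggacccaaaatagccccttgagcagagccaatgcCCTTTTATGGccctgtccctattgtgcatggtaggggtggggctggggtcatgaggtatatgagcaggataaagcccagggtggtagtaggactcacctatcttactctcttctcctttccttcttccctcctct
Myl7, chr11:5898733-5899032, minus strand: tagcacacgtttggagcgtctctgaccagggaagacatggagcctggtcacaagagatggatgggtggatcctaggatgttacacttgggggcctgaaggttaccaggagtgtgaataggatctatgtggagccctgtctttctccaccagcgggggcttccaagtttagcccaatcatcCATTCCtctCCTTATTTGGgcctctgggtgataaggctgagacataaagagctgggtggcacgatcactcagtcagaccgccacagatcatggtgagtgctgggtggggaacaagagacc
The CArG box begins 85 bases before the start of Myl3 and 61 bases before the start of Myl7. The CATTCC motif begins 206 bases before the start of Myh6 and 201 bases before this start of Myh7. A second Myh7 window, whose start lies farther downstream, holds neither motif. Tnnt2, not shown, has CATTCC 27 bases before a start, and the windows of Myl2, also not shown, hold neither motif. The Myl2 windows end at 122092773 and 122093238 on chromosome 5 (plus strand), upstream of the annotated gene, which begins at 122100951. The sequence at that annotated start was not searched.

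**Figure D1:**
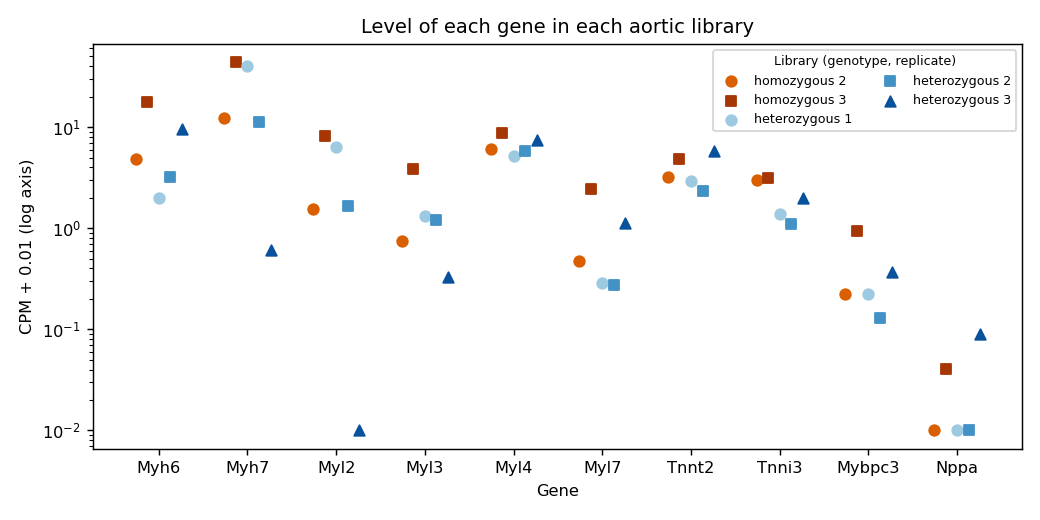
CPM plus 0.01 on a log axis for each of the 10 genes in each library; orange and brown points are homozygous (replicates 2 and 3), blue points heterozygous (replicates 1, 2 and 3), and points at the bottom are libraries with 0 counts. Myh7 ranged from 0.597 to 43.7 CPM, whereas Myl4 stayed between 5.20 and 8.78 CPM.

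By mean CPM, Myh7 stood at percentile 61.6 of the genes tested and the other 8 tested members at percentiles from 4.67 to 42.2. Per length (RPKM, CPM per kilobase of annotated exon), the mean level over the 5 libraries fell in the order Myh7 (2.51), Myl2 (1.82), Myl7 (1.55), Myl4 (1.43), Myh6 (1.11), Tnni3 (1.03), Myl3 (0.728), Tnnt2 (0.489), Mybpc3 (0.0877) and Nppa (0.0255). The ranges over libraries of neighbours in this order overlapped, except that Tnnt2 (0.298 to 0.739 RPKM) lay above Mybpc3 (0.0285 to 0.221 RPKM). Of the 10, 9 passed edgeR's filter on low counts, and Nppa did not.

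Of the 18192 genes tested, 0% were higher and 0% lower by edgeR's quasi-likelihood test with an adjusted p under 0.05, and likewise 0 of the 9 tested members. At an unadjusted p under 0.05 it gave 9.04% of all genes higher and 6.75% lower, and 1 of the 9 members, Tnni3, higher. DESeq2 called 3.33% of its genes higher and 2.61% lower, with 0 members (Mybpc3 had no adjusted p there), and limma-voom called 0% higher and 0.0055% lower, with 0 members. The log2 fold change was positive for all 9 tested members, from 0.15 for Tnnt2 to 1.48 for Myl7, with a median of 1.05, against a median of -0.02 for all genes tested. That direction rested on homozygous replicate 3. Without it, 7 of the 9 turned negative and the median was -0.17, while without homozygous replicate 2 the median was 1.602. Homozygous replicate 3 was the highest of the 5 libraries for 8 of the 9 members, compared with 20.8% of all genes tested. Homozygous replicate 2 lay within the heterozygous range for 8 of the 9, but the share of all genes tested for which it did was not counted.

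**Figure D2:**
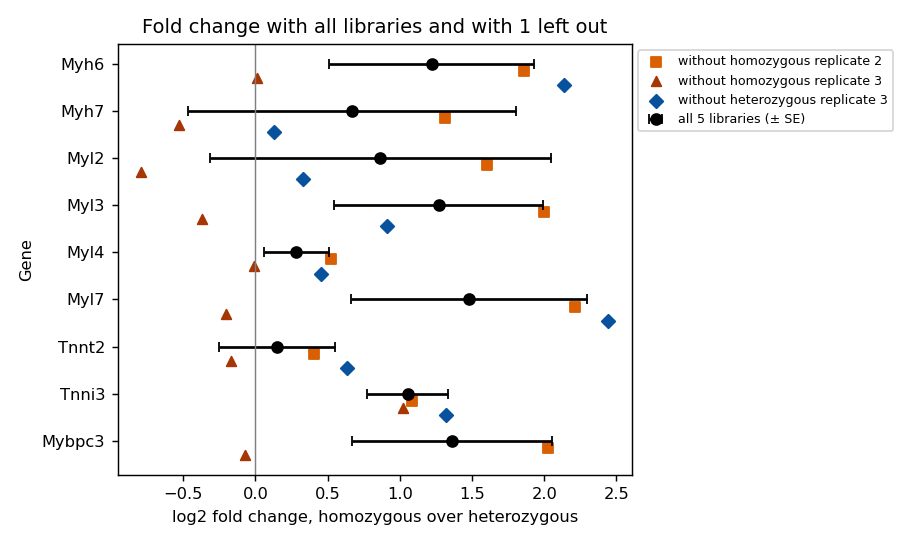
log2 fold change, homozygous over heterozygous, of the 9 tested genes with all 5 libraries (black, bars are the SE) and with 1 library left out (coloured marks). Without homozygous replicate 3 the values lie below 0 apart from Myh6 (0.012) and Tnni3 (1.02).

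Myh7, the slow myosin heavy chain, had the widest range in CPM. It stood at 12.2 and 43.7 CPM in homozygous replicates 2 and 3, against 40.6, 11.1 and 0.597 CPM in heterozygous replicates 1, 2 and 3. One library of each genotype was near 40 CPM, another of each near 12 CPM, and heterozygous replicate 3 was far below both, so the groups overlapped. The log2 fold change was 0.67 (SE 1.13, edgeR adjusted p = 0.826), and it was -0.53 without homozygous replicate 3 and 0.13 without heterozygous replicate 3. Myh7 lies on chromosome 14 from 54970684 to 54994626 (GRCm38, minus strand), just beside Myh6, and 9.54% of its 100-base transcript words also occur in other genes, mostly Myh6. Antisense genes overlap it, Mhrt among them, with at most 3 counts each in any library.

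Myl2, the regulatory light chain of ventricle and slow fibres, stood at 1.56 and 8.23 CPM in homozygous replicates 2 and 3, against 6.30, 1.66 and 0 CPM in heterozygous replicates 1, 2 and 3. The 0 counts in heterozygous replicate 3 allow up to 0.119 CPM if the limit is set at 3 counts, and up to 0.147 CPM by the 95% counting interval. Its fold change was 0.86 on the log2 scale (SE 1.18, edgeR adjusted p = 0.775), and -0.79 without homozygous replicate 3. Over the 5 libraries Myl2 and Myh7 ran nearly in parallel. The root mean square difference of their log2(CPM + 0.1) values, each centred on its own mean, was 0.17, and each was the nearest of all tested genes to the other. Smtnl1 and Jsrp1 (a protein of the skeletal muscle triad) came next for Myh7, at 0.50 and 0.62.

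Myl3, the essential light chain of ventricle and slow fibres, stood at 0.742 and 3.87 CPM in homozygous replicates 2 and 3, against 1.32, 1.19 and 0.318 CPM in heterozygous replicates 1, 2 and 3. Heterozygous replicate 3 was again the lowest library. The log2 fold change was 1.27 (SE 0.72, edgeR adjusted p = 0.454), and -0.37 without homozygous replicate 3. Myl3 shares 95 exonic bases with Pth1r on the opposite strand, which had 312 to 473 counts, so with a strand setting that is not given its 8 to 126 counts are uncertain. Its nearest genes were Tpsb2 (a mast cell tryptase), Ddit4l and Cpa3 (a mast cell carboxypeptidase), at 0.26, 0.29 and 0.32.

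**Figure D3:**
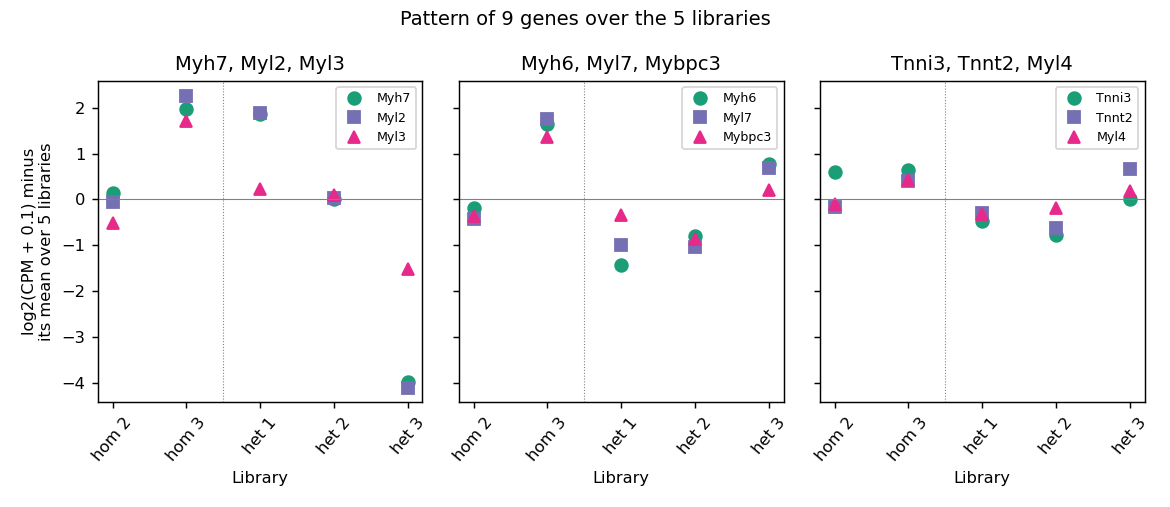
log2(CPM + 0.1) of each gene minus its own mean over the 5 libraries; hom and het are homozygous and heterozygous with the replicate number, and the genes were put into 3 panels after their values were seen. Myh7 and Myl2 lie far below their means in heterozygous replicate 3, where Myh6 and Myl7 lie above theirs.

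Myh6, the fast cardiac heavy chain, had another pattern. It stood at 4.88 and 17.6 CPM in homozygous replicates 2 and 3, against 2.00, 3.17 and 9.55 CPM in heterozygous replicates 1, 2 and 3. Here heterozygous replicate 3 was the highest of its group, the reverse of its place for Myh7. The fold change was 1.22 on the log2 scale (SE 0.71, edgeR adjusted p = 0.464). It was 0.012 without homozygous replicate 3 and 2.14 without heterozygous replicate 3 (adjusted p = 0.172), and only with no low-count filter did it pass (adjusted p = 0.0453, over a range of 0.0453 to 0.997 in all alternatives). Myh6 lies on chromosome 14 from 54941921 to 54966927 (GRCm38, minus strand) and shares 10.0% of its words with Myh7.

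Myl7, the atrial regulatory light chain, stood at 0.460 and 2.46 CPM in homozygous replicates 2 and 3, against 0.277, 0.267 and 1.11 CPM in heterozygous replicates 1, 2 and 3. Homozygous replicate 3 and heterozygous replicate 3 were thus the high libraries of either genotype, as for Myh6. Its log2 fold change was 1.48 (SE 0.82, edgeR adjusted p = 0.441), with -0.20 when homozygous replicate 3 was left out and 2.44 when heterozygous replicate 3 was. Myl7 was the nearest tested gene to Myh6 and Myh6 the nearest to Myl7, at a difference of 0.26, while Myh6 and Myh7 were 2.63 apart. The Myl7 values rest on 13 and 80 counts in homozygous and on 9, 9 and 28 counts in heterozygous libraries.

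Mybpc3, cardiac myosin-binding protein C of the thick filament, stood at 0.212 and 0.921 CPM in homozygous replicates 2 and 3, against 0.215, 0.119 and 0.358 CPM in heterozygous replicates 1, 2 and 3. The 95% counting interval of homozygous replicate 2 was 0.0778 to 0.462 CPM, which covers all 3 heterozygous values. Its log2 fold change was 1.36 (SE 0.70, edgeR adjusted p = 0.405), and -0.07 without homozygous replicate 3.

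Tnni3, the cardiac inhibitory troponin, was the member whose genotypes did not overlap. It stood at 3.00 and 3.13 CPM in homozygous replicates 2 and 3, against 1.38, 1.10 and 1.99 CPM in heterozygous replicates 1, 2 and 3. The homozygous libraries were nearly equal, and both lay above every heterozygous library. Non-overlap with higher homozygous values held for 1 of the 9 members, against 17.4% of all genes tested, and non-overlap with lower values for 0, against 18.2%. The log2 fold change was 1.05 (SE 0.28, edgeR adjusted p = 0.159), and it stayed between 0.89 and 1.32 when any library was left out. By DESeq2 the adjusted p was 0.0511, and by edgeR without any low-count filter it was 0.0161, while over all alternatives the adjusted p ran from 0.0161 to 0.586. Tnni3 lies on chromosome 7 from 4518305 to 4524229 (GRCm38, minus strand). It shares 86 exonic bases with Dnaaf3 on the same strand, which had 36 to 49 counts, so its 37 to 102 counts may lack reads that could not be assigned.

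Myl4, the essential light chain of atrial and embryonic muscle, was the most even member. It stood at 6.04 and 8.78 CPM in homozygous replicates 2 and 3, against 5.20, 5.75 and 7.40 CPM in heterozygous replicates 1, 2 and 3, a log2 fold change of 0.28 (SE 0.23, edgeR adjusted p = 0.603) that was -0.012 without homozygous replicate 3. Tnnt2, the tropomyosin-binding cardiac troponin, stood at 3.22 and 4.79 CPM in homozygous replicates 2 and 3, against 2.92, 2.31 and 5.73 CPM in heterozygous replicates 1, 2 and 3. It was the tested member with its highest value in a heterozygous library, and its log2 fold change was 0.15 (SE 0.40, edgeR adjusted p = 0.897), turning to -0.17 without homozygous replicate 3 and -0.08 without heterozygous replicate 2. Nppa was close to absent from the counts, with 0 and 1 counts in homozygous replicates 2 and 3, against 0, 0 and 2 counts in heterozygous replicates 1, 2 and 3. It shares 43.9% of its words with the antisense gene Gm13054, which had 12 to 28 counts, so that even these counts are uncertain.

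Shares within isoform families do not depend on library scaling. Myh7 made up 71.4% and 71.3% of the Myh6 and Myh7 counts in homozygous replicates 2 and 3, against 95.3%, 77.8% and 5.88% in heterozygous replicates 1, 2 and 3. The difference in means was 11.7 points (two-sided exact permutation p = 1, adjusted p = 1 over 4 shares), and -15.2 points without heterozygous replicate 3, in which Myh6 took most of the counts. With 2 libraries against 3 the smallest p possible is 0.1. The atrial light chains Myl4 and Myl7 made up 73.9% and 48.2% of the counts of Myl2, Myl3, Myl4 and Myl7 in homozygous replicates 2 and 3, against 41.8%, 67.9% and 96.4% in heterozygous replicates 1, 2 and 3. The mean difference was -7.66 points (exact permutation p = 0.9), turning to 6.19 points without heterozygous replicate 3 and 5.20 points without homozygous replicate 3, and -2.67 points with counts divided by exon length.

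Cardiac troponin isoforms were a small part of their families except in heterozygous replicate 3. Tnni3 made up 8.20% and 3.33% of Tnni1, Tnni2 and Tnni3 counts in homozygous replicates 2 and 3, against 5.61%, 8.75% and 89.3% in heterozygous replicates 1, 2 and 3. The difference in means was -28.8 points (exact permutation p = 0.6), and -1.41 points without heterozygous replicate 3. Tnnt2 made up 3.72% and 2.22% of Tnnt1, Tnnt2 and Tnnt3 counts in homozygous replicates 2 and 3, against 4.87%, 7.28% and 49.3% in heterozygous replicates 1, 2 and 3. The difference was -17.5 points (exact permutation p = 0.5), and -3.11 points without heterozygous replicate 3. With counts divided by exon length the difference was -6.38 points, and the share in heterozygous replicate 3 was 18.3%. That library held 56 counts of the 3 Tnni genes, and the 95% Wilson interval of its Tnnt2 share, from 292 counts, was 43.6% to 55.0%. Intervals and limits here cover counting error only.

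**Figure D4:**
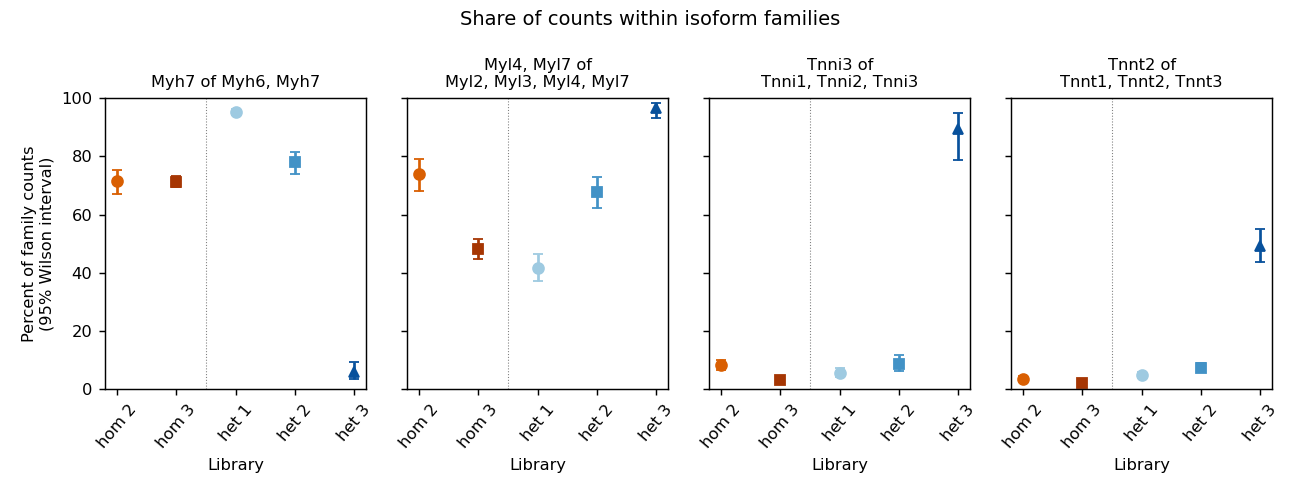
Percent of the counts of each isoform family taken by the named cardiac or slow genes in each library, with 95% Wilson intervals; orange and brown are homozygous (hom), blue heterozygous (het). Heterozygous replicate 3 stands apart in every panel, with 5.88% Myh7 of Myh6 and Myh7 and 89.3% Tnni3 of the Tnni genes.

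Set among the sarcomeric heavy chains, a comparison chosen after the values were seen and not tested, the library differences were large. Myh7 held 2.66% and 3.43% of the counts of Myh1, Myh2, Myh4, Myh6 and Myh7 in homozygous replicates 2 and 3, against 12.0%, 7.53% and 4.97% in heterozygous replicates 1, 2 and 3. The Myh7 share was thus lower in both homozygous libraries than in any heterozygous library. The 15 counts behind it in heterozygous replicate 3 allow 3.03% to 8.03% (95% Wilson interval). By CPM, 18.2% of all genes tested had such non-overlap with lower homozygous values. The share also depends on the other chains in the sum. In homozygous replicates 2 and 3 Myh1 held 64.9% and 39.0%, and Myh2 26.7% and 20.8%. In heterozygous replicates 1, 2 and 3 Myh1 held 35.2%, 43.6% and 2.65%, and Myh2 51.3%, 29.6% and 12.9%. Myh6 held 1.07% and 1.38% of the 5 chains in homozygous replicates 2 and 3, against 0.59%, 2.14% and 79.5% in heterozygous replicates 1, 2 and 3. The fast chain Myh4 held 4.73% and 35.4% in homozygous replicates 2 and 3, against 0.926%, 17.2% and 0% in heterozygous replicates 1, 2 and 3. Heterozygous replicate 3 had 302 counts of the 5 genes in all, 240 of them Myh6, while homozygous replicate 3 had 41439.

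The order of the libraries was counted for each list. Of the 16 fast skeletal fibre markers, 13 ran from high to low as homozygous replicate 3, homozygous replicate 2, heterozygous replicate 1, heterozygous replicate 2 and heterozygous replicate 3, as did 0 of the 9 tested members and 2.66% of all genes tested. Heterozygous replicate 1 exceeded homozygous replicate 2 for 2 of the 16 fast genes, for all 5 tested genes of the slow fibre list, for 4 of the 9 tested members (Myh7, Myl2, Myl3 and Mybpc3), and for 9426 of all 18192 genes. The share among the members is thus near that of all genes. For Mybpc3 the values were 0.212 CPM in homozygous replicate 2 and 0.215 CPM in heterozygous replicate 1.

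**Figure D5:**
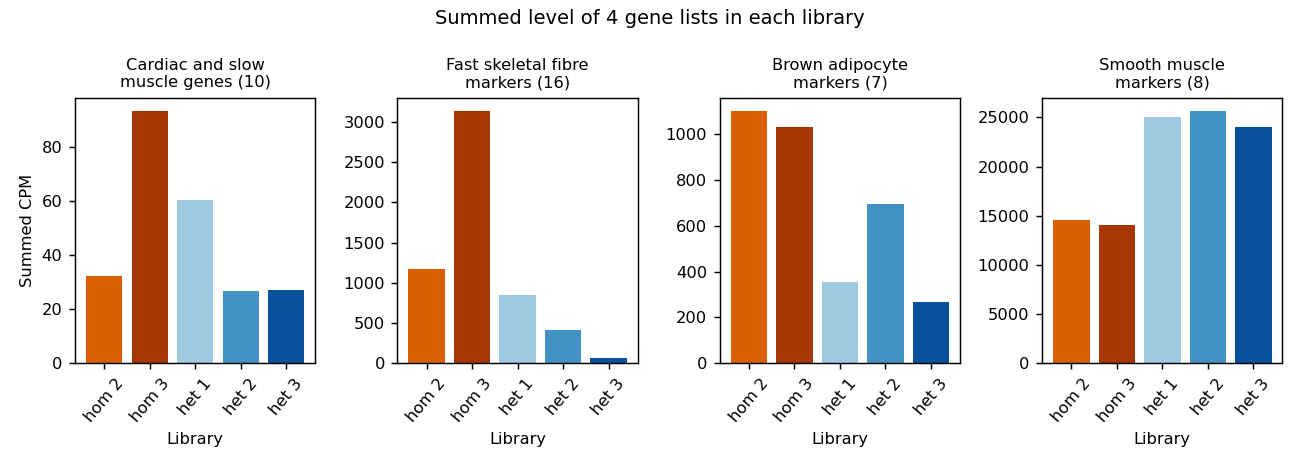
Summed CPM of the 10 cardiac and slow muscle genes, 16 fast skeletal fibre markers, 7 brown adipocyte markers and 8 smooth muscle markers in each library; hom is homozygous and het heterozygous with the replicate number, and bars start at 0. Homozygous replicate 3 is highest in the first and second panels (93.5 and 3143 CPM).

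The slow fibre list had 5 tested genes, of which edgeR called 0 and DESeq2 called 0, with a median log2 fold change of 0.22. Tnnt1, slow skeletal troponin T, stood at 2.79 and 7.10 CPM in homozygous replicates 2 and 3, against 7.16, 3.20 and 2.39 CPM in heterozygous replicates 1, 2 and 3. Tnni1, slow skeletal troponin I, stood at 0.601 and 2.27 CPM in homozygous replicates 2 and 3, against 2.61, 1.04 and 0.0398 CPM in heterozygous replicates 1, 2 and 3. Tnnc1, troponin C of heart and slow fibres, was added after its values were seen. It stood at 0.742 and 3.23 CPM in homozygous replicates 2 and 3, against 2.83, 1.13 and 0.358 CPM in heterozygous replicates 1, 2 and 3. As for Myh7, the high library of either genotype in these 3 genes was homozygous replicate 3 or heterozygous replicate 1. Mybpc1, a myosin-binding protein of skeletal muscle, had a log2 fold change of 2.07 (edgeR adjusted p = 0.431), and among the others were Tpm3, with 15.8% of its words in other genes, at -0.06 and Myom3 at 1.28.

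Of 20 tested sarcomere partners of the heart, edgeR called 0 and DESeq2 called 0, with a median log2 fold change of 0.41 and 13 positive values. Ttn, the giant spring protein titin, stood at 2063 and 5320 CPM in homozygous replicates 2 and 3, against 1821, 595 and 38.8 CPM in heterozygous replicates 1, 2 and 3. The libraries thus followed the order of the fast fibre genes, and the log2 fold change was 2.17 (edgeR adjusted p = 0.428). Myom1, a protein of the M-band, went the other way, with 1409 and 1214 CPM in homozygous libraries against 1443, 1500 and 2865 CPM in heterozygous libraries (log2 fold change -0.56). Ldb3, a Z-disc protein, gave -0.61 and Xirp1 -0.61, while Cmya5, with 18.2% of its words in other genes, gave 1.11, Tcap, the titin cap, 0.44 and Xirp2 1.20, none of them past the threshold in edgeR or DESeq2.

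Of 9 tested calcium cycling genes, edgeR called 0, and the median log2 fold change was 0.01. DESeq2 called 1 higher (Hrc) and 3 lower (Jph2, Slc8a1 and Pln), against 3.33% and 2.61% of all genes. The DESeq2 adjusted p was just under the threshold for Hrc (0.0480) and Pln (0.0498). For Jph2 it was 0.000904 and for Slc8a1 0.00379. Ryr2, the cardiac ryanodine receptor that smooth muscle also uses, stood at 434 and 403 CPM in homozygous libraries and at 346, 383 and 519 CPM in heterozygous libraries. Jph2, a junctophilin that holds reticulum to the cell membrane, stood at 346 and 343 CPM in homozygous libraries and at 463, 578 and 510 CPM in heterozygous libraries, with a log2 fold change of -0.59 (edgeR adjusted p = 0.114). Atp2a2, the calcium pump of heart, slow fibres and smooth muscle, gave -0.37, and Slc8a1, the sodium-calcium exchanger, -0.45. Hrc gave 0.97, Trdn 2.06 and Casq2, the cardiac calsequestrin, 1.36. Pln, the pump's inhibitor, gave -0.83, and 49.6% of its words occur in other genes.

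Regulators and channels of cardiomyocytes were sparse. Nkx2-5, Irx4 and Bmp10, which mark cardiac, ventricular and atrial cells, had 0 counts in all 5 libraries, where a limit of 3 counts allows at most 0.119 CPM. Of the 12 genes on the list 6 were tested, and edgeR and DESeq2 called 0 of them. Tbx5, a cardiac and forelimb transcription factor, stood at 0.636 and 1.44 CPM in homozygous libraries and at 0.646, 1.04 and 0.159 CPM in heterozygous libraries. Tbx20, a cardiac T-box factor, stood at 7.60 and 5.10 CPM in homozygous libraries and at 6.46, 8.63 and 11.2 CPM in heterozygous libraries. In bulk RNA of this kind, fewer cells of a type and less RNA per cell cannot be told apart.

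The natriuretic peptide ligands were near or at 0, while their receptors were present. Nppb and Nppc had 0 counts in all 5 libraries. Npr1, the receptor for the atrial peptide, stood at 393 and 362 CPM in homozygous libraries and at 364, 399 and 455 CPM in heterozygous libraries, a log2 fold change of -0.11 (edgeR adjusted p = 0.728). Npr2, the receptor for the C-type peptide, gave -0.12 and Npr3, the clearance receptor, 0.02. Furin, a proprotein convertase, gave -0.13, and Pcsk6, a convertase that activates Corin, 0.05. Mme, the peptidase neprilysin that degrades these peptides, stood at 61.3 and 87.4 CPM in homozygous libraries, against 35.4, 45.4 and 25.1 CPM in heterozygous libraries. Its log2 fold change was 1.07 (edgeR adjusted p = 0.13). It was the 1 of 7 tested genes of the list that DESeq2 called (adjusted p = 0.00257). Over all genes DESeq2 called 3.33% higher.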

How the data were processed

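Aortic RNA was sequenced from Illumina stranded mRNA libraries. The submitters' processing notes name STAR 2.7.0f, fastp 0.20.0, Subread 1.6.4 with its featureCounts, and build GRCm38. The deposited file holds the authors' raw counts per gene. No source used here gives the annotation release or strand setting. Genes were filtered with edgeR's filterByExpr, scaled by TMM and tested with edgeR 4.0.16 (quasi-likelihood F test on genotype, R 4.3.3), with Benjamini-Hochberg adjustment over 18192 genes and a threshold of 0.05. The alternatives were median-ratio size factors, DESeq2 1.42.0, limma-voom (limma 3.58.1), no filter, a filter of CPM of at least 1 in at least 2 libraries, a replicate block, each library left out and, for isoform shares, counts divided by exon length. The test was checked on simulated counts. Gene positions, exon lengths and shared 100-base words came from GENCODE M21 on GRCm38, and promoters from RefSeq. Members and gene lists were chosen with earlier results of these data known. From each list the text names its most abundant genes (4, or 8 for cardiac and slow lists), not every list being described, and the nearest genes by pattern; 1 sarcomere gene is not reported here. The p-values rest on the spread between these 5 aortae, and no libraries of a group agreed within sampling noise. For each gene, edgeR moderates that spread towards the spread of other genes, with 3 residual and 4.01 prior degrees of freedom.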

Additional observations from a re-analysis of the deposited data

How the results depend on the processing

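Over all genes, DESeq2 called 524 higher and 411 lower, limma-voom 1 lower, edgeR with no low-count filter 982 higher and 432 lower, and the replicate block 3 higher and 2 lower, against 0 and 0 as reported. With no filter 2 of 10 members were called higher, Myh6 and Tnni3, and other alternatives called 0 members. The groups of Myh6 overlapped, with 9.55 CPM in heterozygous replicate 3 and 4.88 CPM in homozygous replicate 2. With each library left out, edgeR called 0 to 139 genes higher and 0 to 9 lower, and the median of the tested members ran from -0.17 to 1.602. The log2 fold change then ran from -0.53 to 2.21 for Myh7, -0.79 to 2.47 for Myl2, -0.37 to 2.00 for Myl3, -0.012 to 0.52 for Myl4, -0.20 to 2.44 for Myl7, -0.17 to 0.63 for Tnnt2 and -0.072 to 2.03 for Mybpc3, each negative end without homozygous replicate 3. The Myh7 share difference ran from -15.2 to 29.5 points, the atrial light chain difference from -21.1 to 6.19, the Tnni3 difference from -43.3 to -1.41 and the Tnnt2 difference from -25.3 to -3.11. Mybpc3 gave no value under the stricter filter or without heterozygous replicate 3. The cause was not tested. A lone homozygous library was taken to have the spread of the remaining libraries.

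Deviations from the group means correlated at -0.0099 for replicate 2 and -0.19 for replicate 3. With 2 homozygous libraries, their deviations are exact opposites, so swapped pairs gave 0.0099 and 0.19. These values cannot decide whether the replicate numbers pair the libraries. The replicate block called 0 members and gave, among others, 2.52 for Myh7 and 0.76 for Myh6. Myl7, Mybpc3 and Nppa had counts of 0 to 80, and Nppa was too low to be tested. Myh7, with up to 1422 counts, still had an SE of 1.13 on the log2 scale. Dividing counts by exon length kept the sign of the 4 share differences, at 8.69 points for Myh7, -2.67 for the atrial light chains, -28.4 for Tnni3 and -6.38 for Tnnt2.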

Other observations

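The junction gene Gja5, listed with the cardiac channels but also made by arterial endothelium and with 12.7% of its words in other genes, stood at 39.7 and 5.07 CPM in homozygous replicates 2 and 3, against 25.4, 36.1 and 24.1 CPM in heterozygous replicates 1, 2 and 3. All 6 endothelial markers were highest in homozygous replicate 2. The share of all genes highest in that library was not counted. Vwf, Pecam1 and Tie1 were lowest in homozygous replicate 3, and Cdh5, Kdr and Emcn in heterozygous replicate 3. The 6 summed to 1027 and 357 CPM in homozygous replicates 2 and 3. In heterozygous replicates 1, 2 and 3 they summed to 706, 893 and 693 CPM. Vwf stood at 463 and 96.0 CPM in homozygous replicates 2 and 3, against 303, 380 and 315 CPM in heterozygous replicates 1, 2 and 3. Kdr stood at 60.1 and 59.9 CPM in homozygous replicates 2 and 3, against 30.3, 52.8 and 20.5 CPM in heterozygous replicates 1, 2 and 3.

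The nearest genes to Mybpc3 and Tnnt2 by pattern were Ccr1, a chemokine receptor of leukocytes, and Gm21738, at differences of 0.15 and 0.03. The nearest to Tnni3 was Olfr224, at a difference of 0.08. Olfr224 stood at 29.6 and 29.9 CPM in homozygous libraries and 15.9, 12.1 and 21.3 CPM in heterozygous libraries. With 5 libraries, close patterns arise among many genes, and these are descriptions only.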
